A study of Gallus gallus with 12 samples.

Results

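The genes described here encode the secreted and membrane-bound ligands of axon guidance and their receptors, measured in the chick embryo in the midbrain (m) and in r1 to r5, the first rhombomeres, which are the swellings that divide the hindbrain along its length. They were taken by name, as every gene whose probe set on the array carries a single symbol of the semaphorin classes 3 to 7, the plexins, the neuropilins, the Slits, the Robos, the netrins, the UNC5 receptors, DCC or NEO1. This gave 42 of the 13009 genes named on the array, covered by 115 of its 38439 probe sets other than controls, and each gene is given by the probe set with the highest mean signal. DCC, ROBO3 and UNC5A carry no probe set under the annotation used here and were not analysed here. All embryos were untreated chick embryos of Hamburger and Hamilton stage HH10 by label, grown to HH10 to HH11. The neural tube was freed of adhering ectoderm and mesoderm with Dispase, a protease, at 1 mg/ml, for 15 min by the labels, and cut into segments by hand. Each of the 6 regions is represented by 2 Affymetrix Chicken GeneChips, denoted set 1 and set 2, each hybridised with its own pool of tissue, so that n = 2 for each region and the 12 arrays limit the precision of every value. A lower signal in a region can come from fewer cells that express a gene or from less RNA per cell, and these cannot be told apart in pooled tissue.

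Guidance molecules steer growing axons and migrating cells by attraction or repulsion. Secreted class 3 semaphorins bind neuropilins, which signal through plexins, whereas most membrane-bound semaphorins bind plexins directly. Slits are secreted repellents that bind Robo receptors, and netrins attract through DCC or its relative neogenin (NEO1) and repel through UNC5 receptors. In the early hindbrain the same families also act on the streams of neural crest cells that leave the segments and on the first blood vessels.

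Signals are MAS5 intensities, deposited without a common scale. The array medians were 2.27 and 4.35 in r3, and 4.19 to 9.67 in the other regions. A scaled signal here is a value over its array's median, times 5.90, the mean of the 12 medians. For the tests, scaled signals below a floor of 1.03 (the 20th percentile of all arrays) were set to the floor and put on a log2 scale, so that fold changes of genes near it are too small. Of the 9 named region markers, OTX2, a homeobox gene of forebrain and midbrain, was at 899 and 800.0 in m. It was at 138 and 145 in r1 and 1.65 to 18.9 in r2 to r5. HOXA3 was at 512 and 503 in r5 and 0.551 to 56.1 elsewhere. HOXB1 was highest in r4, at 225 and 367, with 57.6 and 101 in r5. GBX2 was highest in r3, at 2099 and 2001, and lowest in m, at 351 and 470. The part of neighbouring tissue in these values was not tested. The 3′ over the 5′ signal of control transcripts, often read as a sign of RNA quality, was highest in r3. For GAPDH it was 41.7 and 42.9 in r3 and 0.941 to 7.49 elsewhere, and for actin it also stood higher in r4 and r5 (22.0 to 44.7) than in the first 3 regions (7.15 to 13.3). The paper checked the RNA before labelling and reports integrity numbers above a common limit for every segment. What raised the ratio in r3 was not tested. The median log2 fold change of r3 against the other 5 regions was −0.65 over the 9940 genes tested. Counts are therefore also given without both r3 arrays. Markers of other tissues were on the arrays too. The 8 named markers of neural crest, the migratory cells that leave the dorsal neural tube, summed to 1917 and 2341 in r4 and 397 to 1286 elsewhere. Those of blood and endothelium (8 of 11 named) summed to 191 and 181 in r2 and 37.2 to 132 elsewhere. Those of head mesoderm and somite (7 of 9) summed to 214 and 125 in r3 and 38.9 to 131 elsewhere, and those of surface ectoderm and otic placode (8 of 10) to 1265 to 1398 in m and r1 and 685 to 1104 in r2 to r5. The 3 notochord markers summed to 121 to 150.3 in m and r1 and 11.1 to 71.6 in r2 to r5.

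Of the 42 guidance genes, 33 exceeded the median of the array on both arrays of some region and were tested, and 16 of these differed between the 6 regions (limma's moderated F test, adjusted p under 0.05). That is 48.5% of the 33, against 41.4% of all 9940 genes tested by the same choice of probe set and 34.9% of all 21731 probe sets, so the share lies near the background. Without both r3 arrays 18 of the 33 differed, 54.5%, against 22.7% of all genes, and 15 of the 16 genes were among them. With no filter 15 of the 42 differed, against 23.4% of all genes, and with a filter on the median over all 12 arrays 16 of 30, against 45.3%. The filter used here keeps a gene that is high in 1 region alone, which favours genes that differ, and these counts are a description. The unmoderated analysis of variance that the methods name was also run, with the same adjustment of p, which the paper leaves optional. There 9 of the 16 genes were still called. PLXNA1, PLXNB3, ROBO2, SEMA3A, SEMA3D, SEMA3F and SLIT3 missed the threshold there (adjusted p = 0.0584 to 0.162). Of the 16 receptors 15 were tested and 9 differed, namely both neuropilins, 5 of 7 plexins, 1 of 3 Robos (2 tested) and 1 of 4 netrin receptors. Of the 26 ligands only 18 were tested and 7 differed, namely 6 of 17 semaphorins (12 tested), 1 of 3 Slits and none of 6 netrins (0 of the 3 tested, with 0 at an unadjusted p under 0.05). In 6 of the 16 the highest mean lay in r1, in 3 each in m and r5, in 2 in r2 and in 1 each in r3 and r4. The lowest mean lay in r3 in 5 of the 16, in m or r5 in 3 each, in r1 or r4 in 2 each, and in r2 in 1. The same tallies were not taken over all genes, of which 45.3% were called lower in r3. They are therefore not read as a trait of the guidance genes. Of the 16 calls, 10 held whichever single array was left out.

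Both neuropilins were higher in m and r1 than in r2 to r5 by the probe set used, and neither call held with the second probe set. NRP2, the co-receptor for SEMA3F, had scaled signals of 103 and 108 in m, 266 and 198 in r1, 137 and 154 in r2, 27.4 and 33.2 in r3, 51.9 and 58.0 in r4 and 13.5 and 30.5 in r5. Its signal was highest in r1 and lowest in r5, and the pair of arrays of m, of r1 and of r2 all lay above every array of r3, r4 and r5. The actin 3′ over 5′ ratio was lower in m, r1 and r2 than in r3 to r5, and its part in this split was not tested. The F test gave an adjusted p = 1.14e-04. Differences are given as log2 fold changes, with the named region over the rest. Leaving out an array also takes a pool from the estimate of the spread. A call can thus be lost, here and below, with its fold change hardly moved. NRP2 was higher in m and r1 than in r2 to r5 by 1.72 (standard error 0.21, adjusted p = 2.18e-04), and by 0.60 (adjusted p = 0.195) with the second, weaker probe set. Against the mean of the other 5 regions it was higher in r1 by 2.05 (standard error 0.26, adjusted p = 0.00247) and lower in r5, at −2.14 (standard error 0.26, adjusted p = 0.00125). The call in r1 was lost without either 1 of the r1 arrays (adjusted p = 0.0567 and 0.132). NRP2 was also lower in r3, at −1.46 (standard error 0.26, adjusted p = 8.17e-04), though not after quantile normalisation (adjusted p = 0.107), and the second probe set, which was not called (F adjusted p = 0.183), had 0.18 there.

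NRP1, the co-receptor for SEMA3A that also binds vascular endothelial growth factor, was high at both ends. Its scaled signals were 82.0 and 82.0 in m, 76.6 and 77.1 in r1, 39.8 and 32.4 in r2, 29.7 and 35.4 in r3, 14.0 and 31.1 in r4 and 80.5 and 57.9 in r5, so that m, r1 and r5 all lay above r2, r3 and r4. Over the 6 regions the F test had an adjusted p = 0.00433, and m and r1 were higher than r2 to r5 by 1.15 (standard error 0.22, adjusted p = 0.00331). In r4 NRP1 was lower than in the other 5 regions, at −1.40 (standard error 0.28, adjusted p = 0.0344). That call was lost without any 1 array of m, r1, r2 or r5 or the r4 array of set 1. The NRP1 value in r4 stayed at −1.40 without either 1 of the m arrays, and was −0.82 without the r4 array of set 1. The second NRP1 probe set had 0.39 (adjusted p = 0.33) for m and r1 against r2 to r5. It also differed between regions (F adjusted p = 0.0467), with r4 again lowest, at 6.16 and 4.96 in r4, but with r3 highest, at 20.1 and 14.7 in r3. In r5 NRP1 was at 69.2 ± 16.0, against 82.0 ± 0.0348 in m (SD, n = 2 each), while NRP2 was at its lowest, 22.0 ± 12.0, against 105 ± 3.75 in m (SD, n = 2 each).

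Among the plexins, PLXNA2, which pairs with neuropilins and in the mouse also binds SEMA6A, was highest in r3 and lowest in m. It had 1088 and 587 in r3, against 85.1 and 88.4 in m, 157 and 203 in r1, 218 and 204 in r2, 319.7 and 374 in r4, and 325 and 291 in r5. Both r3 arrays lay above all others, those of m below all others, and r4 and r5 above r1 and r2. PLXNA2 was higher in r3 than in the other 5 regions by 1.97 (standard error 0.20, adjusted p = 2.08e-05) and lower in m, at −1.87 (standard error 0.20, adjusted p = 3.23e-04), and m and r1 were lower than r2 to r5, at −1.56 (standard error 0.16, adjusted p = 8.50e-05). These 3 calls and the F test (adjusted p = 1.00e-04) held whichever array was left out. Without the r3 arrays, m was still lower,, at −1.54 (standard error 0.14, adjusted p = 6.93e-06). The 3 other PLXNA2 probe sets also passed the F test (adjusted p = 1.38e-04, 0.0311 and 0.0325), all with their lowest mean in m, but r3 was the highest region in none of them. In the strongest of these, r4 was highest, at 472 and 518 in r4, with 466 and 266 in r3. The low level in m was thus shared by 4 of 4 probe sets and the peak in r3 was not. Of the 7 markers of head mesoderm and somite, 4 also had their highest mean in r3 (FOXC2 and TWIST1, and FOXC1 and TBX1, which did not pass the filter), while PRRX1 was highest in r4 and TCF15 was lowest in r3, at 11.6 and 11.3 in r3 and 15.7 to 26.8 elsewhere. TWIST1, a gene of head mesenchyme, was furthest apart (127 and 60.2 in r3, and 1.15 to 29.8 elsewhere), and the part of such cells in the PLXNA2 value was not tested.

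PLXNC1, the receptor of SEMA7A, had scaled signals of 604 and 755 in m, 1073 and 1316 in r1, 856 and 1011 in r2, 388 and 461 in r3, 504 and 555 in r4 and 524 and 485 in r5. The arrays of r1 were the highest and those of r3 the lowest, and m, r1 and r2 all lay above r3, r4 and r5. This is also how the actin 3′ over 5′ ratio divided the regions, and its part in the PLXNC1 values was not tested. PLXNC1 differed between regions (F adjusted p = 6.83e-04) and was higher in m and r1 than in r2 to r5 by 0.65 (standard error 0.12, adjusted p = 0.00217). In r1 it was higher than in the other 5 regions by 1.01 (standard error 0.15, adjusted p = 0.00513), a call lost without either 1 of the r1 arrays (adjusted p = 0.0789 and 0.2), and in r3 it was lower, at −0.78 (standard error 0.15, adjusted p = 0.00116), a call lost with array weights (adjusted p = 0.0573). All 3 PLXNC1 probe sets passed the F test, and r1 had the highest mean in each.

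PLXND1, the receptor of SEMA3E that is best known from endothelium, stood out in r2. It had 156 and 143 in r2, against 26.8 and 45.9 in m, 33.5 and 24.5 in r1, 64.5 and 94.2 in r3, 63.6 and 58.4 in r4, and 82.4 and 76.6 in r5. Both r2 arrays lay above all others, while m and r1 lay below the other regions. Against the other 5 regions PLXND1 was higher in r2 by 1.52 (standard error 0.24, adjusted p = 0.0243) and lower in r1, at −1.34 (standard error 0.24, adjusted p = 0.0159) and in m, at −0.98 (standard error 0.24, adjusted p = 0.0282). The call in r2 was lost without any 1 array of r1, r2 or r5 or the r4 array of set 1 (adjusted p = 0.0539 to 0.624), that in r1 without either 1 of the r1 arrays (adjusted p = 0.149 and 0.341) and that in m without any 1 array of m or r2, the r1 array of set 1 or the r5 array of set 1 (adjusted p = 0.0523 to 0.424). The F test (adjusted p = 0.00107) and the contrast of m and r1 with r2 to r5, −1.45 (standard error 0.19, adjusted p = 3.59e-04), held without any single array, and the contrast missed the threshold without scaling (adjusted p = 0.0514). Of the 8 endothelial and blood markers, 4 also had their highest mean in r2 (CDH5, CLDN5, HBZ and LMO2). CDH5, the cadherin of endothelial cells, was at 39.0 and 40.03 in r2 and 5.23 to 37.7 elsewhere, CLDN5, a tight junction protein of endothelium, at 22.8 and 15.2 in r2 and 0.875 to 9.48 elsewhere, and HBZ, an embryonic globin, at 40.5 and 28.3 in r2 and 3.63 to 12.6 elsewhere. KDR, the endothelial receptor of vascular endothelial growth factor, was highest in r5 and stood at 1.28 and 7.31 in r2 and 0.235 to 11.8 elsewhere. The part of such cells in the PLXND1 signal was not tested.

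PLXNA1 and PLXNB3 had their lowest level in r3. PLXNA1 had 223 and 198 in r3, against 385 and 369 in m, 448 and 369 in r1, 369 and 339 in r2, 313 and 469.8 in r4, and 258 and 289.9 in r5. Its r3 arrays lay below all others, at −0.76 (standard error 0.17, adjusted p = 0.00282). That call was lost after quantile normalisation (adjusted p = 0.352), with array weights (adjusted p = 0.0639) and with the second probe set (adjusted p = 0.13). The F test (adjusted p = 0.0223) was lost without either 1 of the m arrays, the r1 array of set 1 or the r2 array of set 1 (adjusted p = 0.0505 to 0.0588) and without both r3 arrays (adjusted p = 0.177), and the contrast of m and r1 with r2 to r5, 0.40 (standard error 0.13, adjusted p = 0.0442), without any 1 array of m, r1, r2 or r5 or the r4 array of set 1 (adjusted p = 0.0616 to 0.192). PLXNB3, which RefSeq also lists as plexin-B1, had 65.0 and 176 in r3, against 274 and 304 in m, 300.2 and 325 in r1, 277 and 294 in r2, 185 and 219.9 in r4, and 259 and 273 in r5. Its r3 arrays were the lowest and the r4 arrays came next, and r3 was lower, at −1.32 (standard error 0.27, adjusted p = 0.00165), a call kept whichever array was left out. The F test of PLXNB3 (adjusted p = 0.0241) was lost without any 1 array of m, r1 or r2 or the r4 array of set 1 (adjusted p = 0.0501 to 0.0626). After quantile normalisation the F tests of PLXNA1 and PLXNB3 were lost as well (adjusted p = 0.206 and 0.126). Over all genes 45.3% were lower in r3, so that the r3 values do not set the plexins apart, and the part of the 3′ over 5′ ratio of these arrays in them was not tested.

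The other 2 plexins did not pass. PLXNB2, a receptor of class 4 semaphorins, had 27.4 and 14.7 in m, 57.1 and 24.9 in r1, 28.9 and 34.6 in r2, 6.98 and 18.6 in r3, 12.7 and 9.30 in r4 and 20.02 and 20.6 in r5 (F adjusted p = 0.0739, and 0.0416 without the r3 arrays). Its weaker probe sets gave 0.0219 and 0.0576, with the highest mean in r1 in all 3. PLXNA4, a further partner of neuropilins, was at 23.9 and 22.4 in r4 and 6.58 to 13.0 elsewhere. Both r4 arrays lay above all others, but the F test missed the threshold (adjusted p = 0.0794), and without the r3 arrays r4 was higher than the other 4 regions by 1.37 (standard error 0.34, adjusted p = 0.0142).

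**Figure D1:**
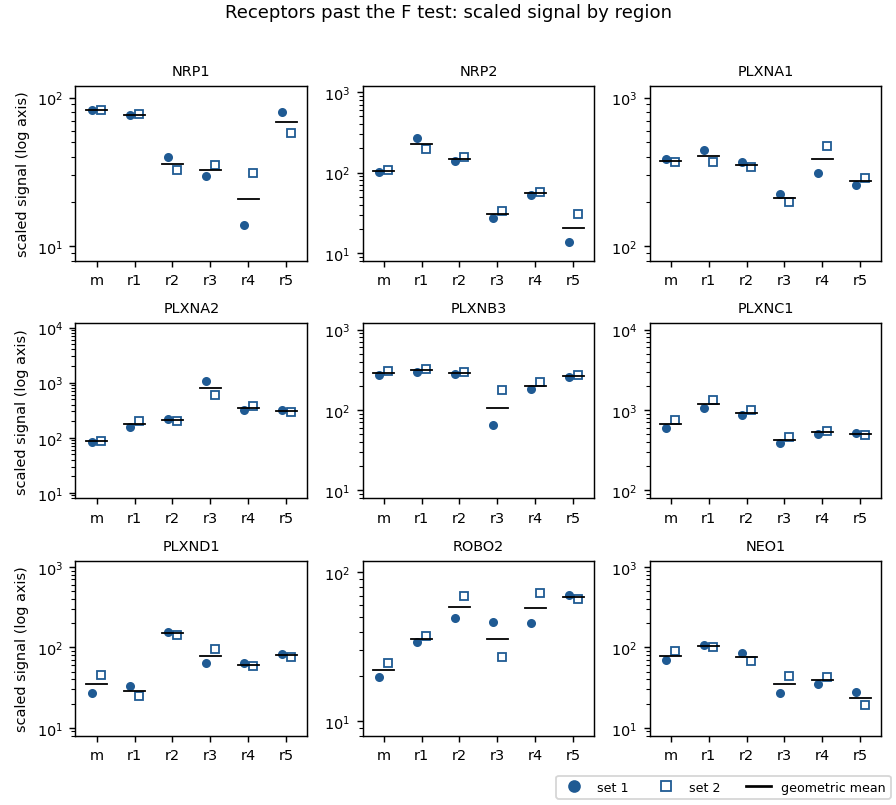
Scaled signal (log axis) of the 9 receptors past the F test in each of the 6 regions, with set 1 as filled circles, set 2 as open squares and the geometric mean of the pair as a line. NRP2 is lowest in r5 (13.5 and 30.5), where NRP1 is at 80.5 and 57.9, PLXNA2 peaks in r3 and PLXND1 in r2.

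Of the 8 secreted semaphorins, 5 were tested and 3 differed. SEMA3F, the ligand of NRP2, had 262 and 228 in m, 206 and 184 in r1, 95.4 and 72.0 in r2, 15.4 and 70.3 in r3, 33.5 and 50.2 in r4 and 154 and 135 in r5. It was high in m and r1, low in r3 and r4, and high again in r5, where both arrays lay above those of r2, r3 and r4. Its adjusted p in the F test was 0.00349, and m and r1 were higher than r2 to r5 by 1.78 (standard error 0.32, adjusted p = 0.00201). SEMA3F was lower in r3, at −1.85 (standard error 0.40, adjusted p = 0.00249) and higher in m by 1.62 (standard error 0.40, adjusted p = 0.0288), of which the second call was lost without any 1 array of m, r1 or r5, the r2 array of set 2 or the r4 array of set 1 (adjusted p = 0.0521 to 0.287). The r3 arrays differed from each other (15.4 and 70.3). Without them the F test gave an adjusted p = 1.25e-05, and SEMA3F was lower in r4 than in m, r1, r2 and r5, at −1.91 (standard error 0.17, adjusted p = 1.26e-05).

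SEMA3A, which repels axons through NRP1, was highest in r1. It had 33.9 and 33.4 in m, 66.4 and 62.5 in r1, 46.3 and 46.0 in r2, 26.0 and 9.78 in r3, 21.2 and 19.5 in r4 and 33.7 and 33.3 in r5. Both r1 arrays lay above all others, those of r2 came second, and those of m and r5 were nearly alike. The F test gave an adjusted p = 0.0137, lost without either 1 of the r1 arrays (adjusted p = 0.0553 and 0.0603) and after quantile normalisation (adjusted p = 0.327). The contrast of m and r1 with r2 to r5 was 0.81 (standard error 0.24, adjusted p = 0.0297), lost without any 1 array of m, r1, r2 or r5 (adjusted p = 0.0524 to 0.113), and that of r3 with the other 5 regions −1.21 (standard error 0.31, adjusted p = 0.0068), lost without the r3 array of set 2 (adjusted p = 0.107) and after quantile normalisation (adjusted p = 0.341). The contrast of m and r1 was also lost after quantile normalisation (adjusted p = 0.386), and that of r3 with array weights (adjusted p = 0.064). Without both r3 arrays SEMA3A was higher in r1 by 1.01 (standard error 0.19, adjusted p = 0.0125) and lower in r4, at −1.07 (standard error 0.19, adjusted p = 0.00213).

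SEMA3D, known in the zebrafish for guiding axons and crest cells, was highest in r2. It had 53.7 and 41.3 in r2, against 11.5 and 12.7 in m, 11.2 and 9.25 in r1, 30.4 and 14.9 in r3, 17.2 and 35.1 in r4, and 19.9 and 17.3 in r5. Both r2 arrays lay above all others and those of m and r1 below all others. SEMA3D was lower in m and r1 than in r2 to r5, at −1.23 (standard error 0.28, adjusted p = 0.0079), which no single array ended, while without scaling the adjusted p was 0.165. The F test (adjusted p = 0.0208) was lost without any 1 array of m, r1 or r2 (adjusted p = 0.0516 to 0.116). A second SEMA3D probe set was at 5.71 to 17.8 over the 12 arrays and passed neither the F test (adjusted p = 0.446) nor the contrast of m and r1, at −0.24 (adjusted p = 0.592), so the pattern rests on 1 probe set. SEMA3G and SEMA3DL were tested and missed the threshold (adjusted p = 0.697 and 0.766, with signals of 1.36 to 13.2 and 5.15 to 19.5). SEMA3B, SEMA3C and SEMA3E did not pass the filter, with highest signals of 5.08, 6.85 and 6.63.

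Of the 9 membrane-bound semaphorins, 7 were tested, and SEMA5B, SEMA6A and SEMA6D differed, each of them higher in r5. SEMA6A, whose receptors in the mouse are PLXNA2 and PLXNA4, had 98.5 and 66.9 in r5, against 17.3 and 17.0 in m, 26.7 and 25.8 in r1, 32.0 and 20.8 in r2, 6.53 and 10.9 in r3, and 12.4 and 31.7 in r4. Both r5 arrays lay above all others. Over the 6 regions the F test had an adjusted p = 0.00408, and r5 was higher than the other 5 regions by 2.16 (standard error 0.36, adjusted p = 0.00994), a call lost without either 1 of the r5 arrays (adjusted p = 0.0931 and 0.208). In r3 SEMA6A was lower, at −1.75 (standard error 0.36, adjusted p = 0.00199). The second SEMA6A probe set did not pass (F adjusted p = 0.578), with the highest mean again in r5, at 8.92 and 14.5 in r5.

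SEMA6D, which in the chick heart signals through PLXNA1, had 244 and 179 in r5, against 46.7 and 47.6 in m, 58.3 and 64.8 in r1, 51.1 and 61.8 in r2, 89.0 and 171 in r3, and 126 and 208 in r4. Its signal was low in m, r1 and r2 (46.7 to 64.8) and higher from r3 to r5, where the arrays overlapped each other but none reached down to the first 3 regions. The actin 3′ over 5′ ratio was likewise higher from r3 to r5, and its part in the SEMA6D values was not tested. SEMA6D had an adjusted p = 0.00136 in the F test, or 0.177 without scaling. SEMA6D was higher in r5 by 1.39 (standard error 0.26, adjusted p = 0.0166), a call lost without either 1 of the r5 arrays (adjusted p = 0.118 and 0.303), and lower in m, at −1.19 (standard error 0.26, adjusted p = 0.0168), a call lost without either 1 of the m arrays (adjusted p = 0.21 and 0.22). It was lower in m and r1 than in r2 to r5, at −1.20 (standard error 0.20, adjusted p = 0.0016), a call kept whichever array was left out and lost without scaling (adjusted p = 0.141). A second probe set passed the F test (adjusted p = 0.0242) but not this contrast, at −0.11 (adjusted p = 0.854), with 60.6 and 55.1 in r5 and 3.29 to 35.4 elsewhere, with r3 lowest, at 3.29 and 17.3 in r3.

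SEMA5B, a membrane semaphorin with thrombospondin repeats, was high at both ends of the series and low between. It had 272 and 247 in m and 260.4 and 246 in r5, against 103 and 76.0 in r1, 67.3 and 56.4 in r2, 54.1 and 97.4 in r3, and 121 and 134 in r4. The arrays of m and r5 overlapped and lay above all others, and those of r4 lay above r1, r2 and r3. The F test gave an adjusted p = 4.21e-04. Against the other 5 regions SEMA5B was higher in m by 1.30 (standard error 0.22, adjusted p = 0.00441) and in r5 by 1.26 (standard error 0.22, adjusted p = 0.0107), calls lost without either 1 of the m arrays (adjusted p = 0.0968 and 0.131) and without either 1 of the r5 arrays (adjusted p = 0.146 and 0.17). It was lower in r2, at −1.18 (standard error 0.22, adjusted p = 0.0442), lost without any 1 array of m, r1, r2, r4 or r5 (adjusted p = 0.0663 to 0.584), and in r3, at −0.90 (standard error 0.22, adjusted p = 0.0048), lost without the r3 array of set 1 (adjusted p = 0.0755) and after quantile normalisation (adjusted p = 0.872). With array weights the call of SEMA5B in r3 was lost as well (adjusted p = 0.0693). Of the 3 other SEMA5B probe sets that were tested, 2 passed the F test (adjusted p = 0.00385 and 0.0375), with signals of 15.4 and 17.5 in m, 1.53 and 1.81 in r2 and 13.3 and 17.1 in r5 in the one with the smaller p.

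The remaining class 4 to 7 semaphorins did not pass. SEMA4B was measured well above the array median in every region (45.5 to 80.2, adjusted p = 0.806). SEMA7A, the ligand of PLXNC1, was at 4.08 to 22.1 (adjusted p = 0.221), SEMA5A at 2.63 to 15.2 (adjusted p = 0.15) and SEMA4D, a ligand of plexin-B receptors, at 0.777 to 7.54 (adjusted p = 0.203). SEMA4G and SEMA6B were below the filter.

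**Figure D2:**
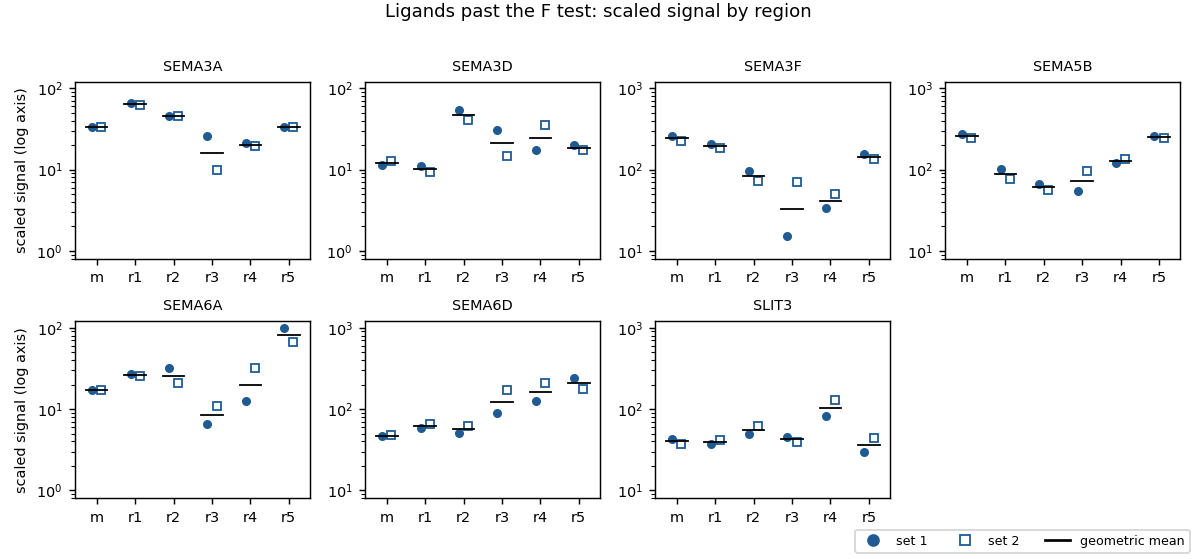
Scaled signal (log axis) of the 7 ligands past the F test in each of the 6 regions, with set 1 as filled circles, set 2 as open squares and the geometric mean of the pair as a line. SEMA3F and SEMA5B are high in m and again in r5, SEMA6A is highest in r5 (98.5 and 66.9), SEMA3D is highest in r2 and SLIT3 in r4.

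Of the Slits, SLIT3 was highest in r4. It had 82.9 and 129 in r4, against 43.3 and 37.5 in m, 37.5 and 41.2 in r1, 49.6 and 62.7 in r2, 45.8 and 39.2 in r3, and 29.4 and 44.3 in r5. Both r4 arrays lay above all others, those of r2 came next, and the rest overlapped. The F test (adjusted p = 0.0154) was lost without the r4 array of set 2 (adjusted p = 0.115). The difference of r4 from the other 5 regions was 1.29 (standard error 0.24, adjusted p = 0.0258), lost without any 1 array of m, r1, r2 or r4 (adjusted p = 0.0536 to 0.191), and without both r3 arrays 1.29 (standard error 0.22, adjusted p = 0.0018). A second SLIT3 probe set did not pass (adjusted p = 0.161) and also had its highest mean in r4, at 21.0 and 27.8 in r4. Crest markers were mostly highest in r4, while the neuron markers were divided between regions. Of the 8 neural crest markers, 7 had their highest mean in r4 as well. SOX10, a transcription factor of neural crest, was at 664 and 856 in r4 and 37.4 to 273 elsewhere, and of the 9 named neuron markers 4 were highest there (DCX, ELAVL4, NHLH1 and STMN2), with STMN2, a microtubule regulator of young neurons, at 85.1 and 132 in r4 and 4.33 to 47.8 elsewhere. Of the other neuron markers, 1 was highest in m, 2 in r1 and 2 in r3. The neuron list summed to 923 and 1247 in r4 and 357 to 916 elsewhere. The part of crest cells or neurons in the r4 values of SLIT3, and of PLXNA4 and UNC5C, was not tested. SLIT2 had 61.7 and 68.5 in m, 113 and 109 in r1, 139.7 and 145 in r2, 55.0 and 109 in r3, 96.2 and 144 in r4 and 91.0 and 92.1 in r5, with m below all others but 1 array of r3, and missed the threshold (adjusted p = 0.0743). Without the r3 arrays SLIT2 was called (adjusted p = 0.00958), with m lower, at −0.81 (standard error 0.16, adjusted p = 0.00671). SLIT1 was near the floor, at 0.424 to 9.56 (adjusted p = 0.102).

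ROBO2, a Slit receptor, had scaled signals of 19.9 and 24.5 in m, 34.1 and 37.5 in r1, 49.4 and 69.2 in r2, 46.1 and 27.2 in r3, 45.8 and 73.1 in r4 and 70.4 and 66.8 in r5. Both m arrays lay below all others, those of r1 next except for 1 array of r3, and r2, r4 and r5 overlapped. Over the 6 regions the F test had an adjusted p = 0.0172, lost without either 1 of the m arrays (adjusted p = 0.057 and 0.091). ROBO2 was lower in m, at −1.16 (standard error 0.27, adjusted p = 0.0218), lost without either 1 of the m arrays, the r1 array of set 2 or the r2 array of set 2 (adjusted p = 0.0524 to 0.284), and in m and r1 against r2 to r5, at −0.93 (standard error 0.21, adjusted p = 0.00796), which no single array ended but which was lost without scaling (adjusted p = 0.381). The contrast had −0.41 (adjusted p = 0.253) with the second probe set, and the 4 other ROBO2 probe sets did not pass the F test (adjusted p = 0.0684 to 0.863). ROBO1 was at 7.45 to 12.7 with no call (adjusted p = 0.933), and ROBO4, the endothelial Robo, was below the filter, with a highest signal of 4.19.

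Of the 6 netrins, NTN1, NTN4 and NTN4L did not pass the filter, while NTN3 (9.96 to 32.3) and NTNG1 (8.02 to 23.6) exceeded the scaled median on all 12 arrays. NTN1, the netrin of the floor plate, had 3.43 and 4.83 in m, 3.50 and 2.27 in r1, 3.01 and 4.21 in r2, 1.07 and 0.963 in r3, 0.726 and 1.33 in r4 and 1.36 and 0.932 in r5. Of the floor plate markers, FOXA2 was at 27.7 to 137 and SHH at 2.38 to 12.9. RefSeq also lists the gene NTN3 under the name NTN1, so the 2 names are not clearly apart. NTN3 had 16.4 and 9.96 in m, 25.1 and 20.9 in r1, 19.4 and 12.1 in r2, 20.2 and 17.3 in r3, 32.3 and 28.7 in r4 and 28.1 and 23.9 in r5 and was not called (adjusted p = 0.126). The membrane-anchored netrins G, NTNG1 and NTNG2, were not called either (adjusted p = 0.772 and 0.331). A low signal of 1 probe set does not show that a transcript was absent.

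NEO1, the netrin receptor related to DCC, had 69.4 and 89.3 in m, 106 and 101 in r1, 85.0 and 67.4 in r2, 27.3 and 44.4 in r3, 35.5 and 43.2 in r4 and 28.2 and 19.0 in r5. Its arrays in m, r1 and r2 all lay above those of r3, r4 and r5. The actin 3′ over 5′ ratio divided the regions alike, at 7.15 to 13.3 in m, r1 and r2 and 22.0 to 181 in r3 to r5. The part of this ratio in the NEO1 values was not tested. NEO1 had an adjusted p = 0.00161 in the F test. Its level in m and r1 was higher than in r2 to r5 by 1.20 (standard error 0.20, adjusted p = 0.00129). In r1 NEO1 was higher by 1.19 (standard error 0.25, adjusted p = 0.0307), lost without any 1 array of m, r1 or r2 or the r5 array of set 2 (adjusted p = 0.0527 to 0.412), and in r5 lower, at −1.40 (standard error 0.25, adjusted p = 0.0132), lost without either 1 of the r5 arrays (adjusted p = 0.0638 and 0.26). The value of r3 was −0.69 (standard error 0.25, adjusted p = 0.0375), lost without either 1 of the r1 arrays, the m array of set 2, the r2 array of set 1, the r3 array of set 1, the r4 array of set 2 or the r5 array of set 1 (adjusted p = 0.0537 to 0.346), and turned to 0.23 after quantile normalisation (adjusted p = 0.396). With array weights NEO1 was not called in r3 (adjusted p = 0.304). The second NEO1 probe set had 22.0 and 29.3 in r1 and 7.08 and 11.5 in r5 and did not pass the F test (adjusted p = 0.0719), with 0.78 (adjusted p = 0.0538) for m and r1 against r2 to r5.

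The 3 UNC5 receptors, which mediate repulsion by netrins, did not pass with the probe set used. UNC5C had 14.6 and 14.4 in m, 21.3 and 28.3 in r1, 30.9 and 32.8 in r2, 43.0 and 12.3 in r3, 43.9 and 67.9 in r4 and 32.7 and 27.0 in r5 (adjusted p = 0.101), with its r3 arrays far apart. Without these it was called (adjusted p = 0.00617), higher in r4 by 1.18 (standard error 0.24, adjusted p = 0.00502) and lower in m, at −1.21 (standard error 0.24, adjusted p = 0.00706). Its other probe set passed (F adjusted p = 0.0118), but was highest in r2, at 47.7 and 45.2 in r2. UNC5B had 38.5 and 42.2 in m, 31.0 and 28.4 in r1, 15.8 and 21.9 in r2, 35.6 and 22.3 in r3, 19.99 and 22.6 in r4 and 31.3 and 16.5 in r5 (adjusted p = 0.224), and its other probe set, which passed (adjusted p = 0.00246), had 55.3 and 44.3 in m, 34.4 and 25.8 in r1, 22.6 and 17.2 in r2, 12.9 and 13.1 in r3, 9.84 and 8.72 in r4 and 22.1 and 21.6 in r5, with m highest in both. UNC5D was at 4.37 to 12.2 (adjusted p = 0.355). 

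Set along the axis, m and r1 had 7 guidance genes higher than r2 to r5 (NEO1, NRP1, NRP2, PLXNA1, PLXNC1, SEMA3A and SEMA3F), 21.2% of the 33 against 21.6% of all genes, and 5 lower (PLXNA2, PLXND1, ROBO2, SEMA3D and SEMA6D), 15.2% against 7.71%. The median log2 fold change was −0.16 over the 33 and 0.24 over all genes tested. The share of genes higher in front is thus that of all genes, while the share of genes lower in front was larger than the background, which is a description and not a test. Of these 12 calls 10 held whichever array was left out. A second probe set was tested for 9 of the 12, and the call held with it for 2 (PLXNA2 and PLXNC1) and was lost for 7. After quantile normalisation 5 were higher and 9 lower, and without scaling 11 and 1. The share over all genes was not taken under either setting, so these counts are not set against a background. The median over all probe sets tested was 0.27 in the values used here, 0.039 after quantile normalisation and 0.77 without scaling, so that the split between higher and lower depends on the scale, and a change of a gene is to be read relative to that median. PLXNA1, at 0.40, lay close to it. The summed markers of the list for surface ectoderm and otic placode and of that for notochord were also higher in m and r1, as given above. Not each marker was. Of the 8 surface ectoderm and otic placode markers, 1 had its highest mean in m, 3 in r1, 2 in r3 and 2 in r4. The 3 notochord markers were highest in m, r1 and r5, 1 in each. The 3′ over 5′ ratio of actin was 7.15 to 13.3 in m and r1, against 9.53 to 13.3 in r2, 181 and 70.0 in r3 and 22.0 to 44.7 in r4 and r5. The part of such tissues or of the ratio in these values was not tested.

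**Figure D3:**
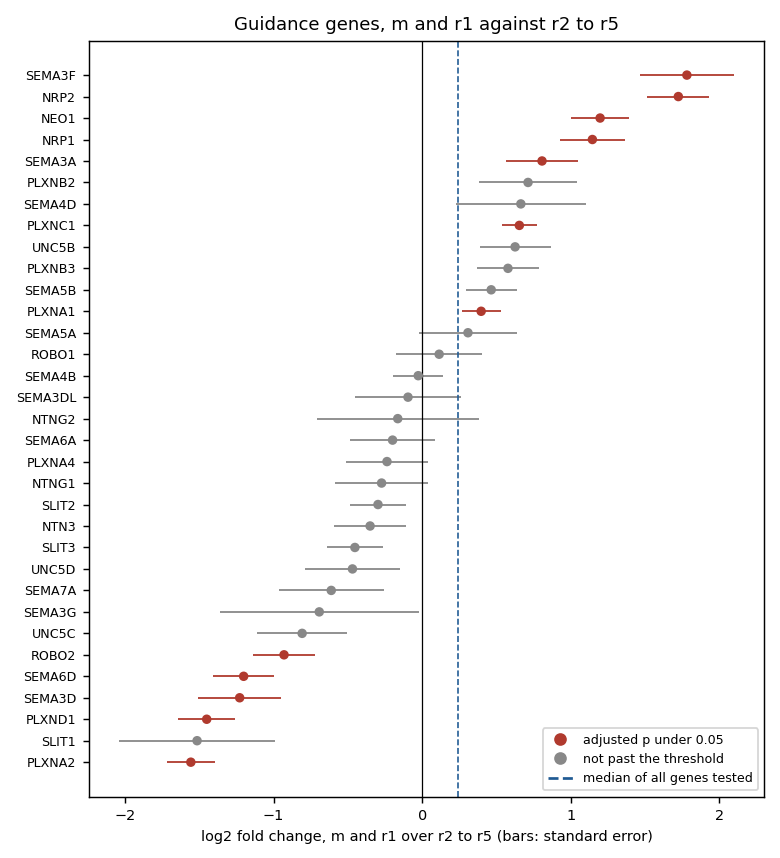
Log2 fold change of m and r1 over r2 to r5 for the 33 guidance genes tested, with standard error bars, red where the adjusted p was under 0.05. SEMA3F and NRP2 lie at the top (1.78 and 1.72), PLXNA2 at the bottom (−1.56), and the dashed line marks the median of all genes tested, 0.24.

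Single regions against the mean of the other 5 had few guidance genes called, which can be read against the background in the same direction. In m, 2 were higher (6.06%, against 7.16% of all genes) and 4 lower (12.1% against 3%). In r1, 3 were higher (9.09% against 2.08%) and 1 lower (3.03% against 0.855%). In r2, PLXND1 was higher (3.03% against 0.382%) and SEMA5B lower (3.03% against 0.151%). In r3, PLXNA2 was higher (3.03% against 7.7%) and 9 were lower (27.3% against 45.3%), below the background of those arrays. In r4, SLIT3 was higher (3.03% against 1.03%) and NRP1 lower (3.03% against 0.493%). In r5, SEMA5B, SEMA6A and SEMA6D were higher (9.09% against 1.7%) and NEO1 and NRP2 lower (6.06% against 0.664%). A count of 1 to 4 genes sets such shares coarsely. Of the 29 calls of single regions, 9 held whichever array was left out. Of these, 7 were calls in r3 (NRP2, PLXNA1, PLXNA2, PLXNB3, PLXNC1, SEMA3F and SEMA6A), and PLXNA2 in m and NRP2 in r5 were the other two.

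Without both r3 arrays the counts rose in r4, where 5 genes were higher than in the other 4 regions (PLXNA2, PLXNA4, SEMA6D, SLIT3 and UNC5C, 15.2% against 8.4% of all genes) and 8 lower (NEO1, NRP1, NRP2, PLXNB2, PLXNB3, PLXNC1, SEMA3A and SEMA3F, 24.2% against 11.1%). In m, 3 were higher (9.09% against 5.6%) and 6 lower (18.2% against 3.8%), in r1, 5 were higher (15.2% against 1.43%) and 2 lower (6.06% against 1.21%), in r2, 2 were higher (6.06% against 0.855%) and 1 lower (3.03% against 0.644%), and in r5, 4 were higher (12.1% against 3.43%) and 4 lower (12.1% against 5.18%). In m and r1 together, 7 were higher (21.2% against 14.5%) and 8 lower (24.2% against 8.24%), with UNC5B among the first and SLIT2, SLIT3 and UNC5C among the second. The loss of the r3 arrays changes what a region is set against, so that these counts do not replace those of all 12 arrays.

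**Figure D4:**
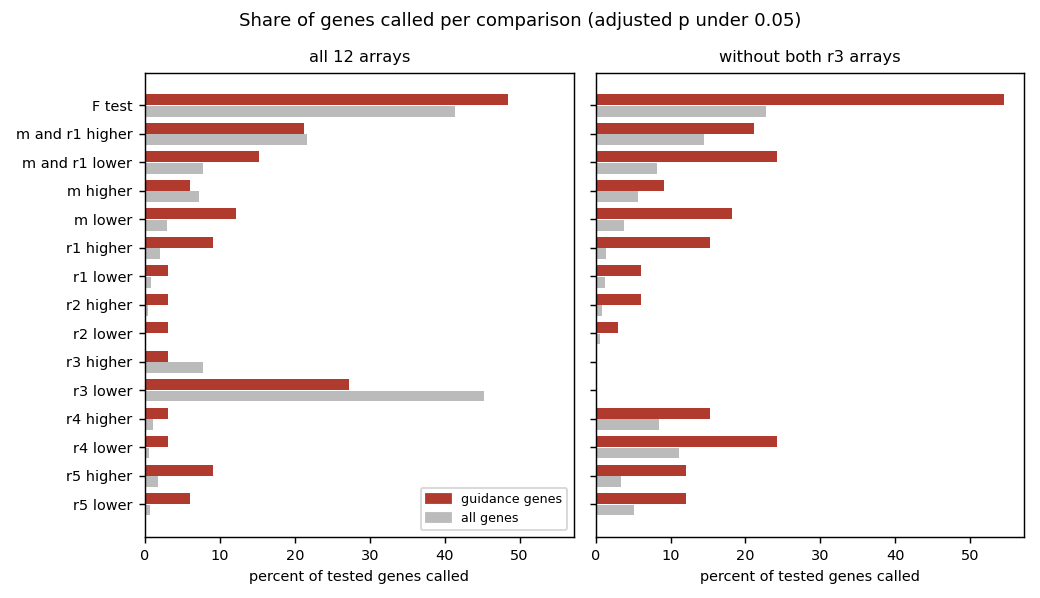
Percent (x axis) of the 33 guidance genes tested (red) and of all 9940 genes tested (grey) called in each comparison at an adjusted p under 0.05, with all 12 arrays and without both r3 arrays, where the r3 rows are empty. The shares in the F test are 48.5% and 41.4% with all arrays, and 54.5% and 22.7% without r3.

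Ligands and their receptors did not always run together along the series. By the probe sets used, SEMA3F and its co-receptor NRP2 were both high in m and r1 and low in r3 and r4, but parted in r2 and r5. Against the other 5 regions the second NRP2 probe set had 0.18 in r3 (adjusted p = 0.735) and −0.67 in r5 (adjusted p = 0.588). The order of NRP2 thus rests on 1 probe set. In r2 SEMA3F was at 83.7 ± 16.5 and NRP2 at 146 ± 12.0 (SD, n = 2 each). The one lay below and the other above its level in m (245 ± 24.1 and 105 ± 3.75). In r5 SEMA3F was at 145 ± 13.3 and NRP2 at 22.0 ± 12.0, the one above and the other below its level in r4 (41.8 ± 11.8 and 55.0 ± 4.33). SEMA3A was highest in r1, where its co-receptor NRP1 was at 76.9 ± 0.408. SEMA3A was at 33.6 ± 0.332 in m and 33.5 ± 0.304 in r5, where NRP1 was high by the probe set used. The second NRP1 probe set was highest in r3. SEMA6A was highest in r5 and lowest in r3 (8.72 ± 3.11). Of its receptors, PLXNA2 was at 308 ± 24.2 in r5 and 86.8 ± 2.34 in m, but was highest in r3 by the probe set used (838 ± 354). PLXNA4, which was not called, was highest in r4 (23.2 ± 1.11) and at 11.0 ± 2.91 in r5. SLIT3 was highest in r4, while the Slit receptor ROBO2 was at 59.4 ± 19.3 in r4 and 68.6 ± 2.53 in r5, a difference smaller than the spread between the r4 pools. These are signals of different probe sets, so only the order of regions within each gene can be compared.

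**Figure D5:**
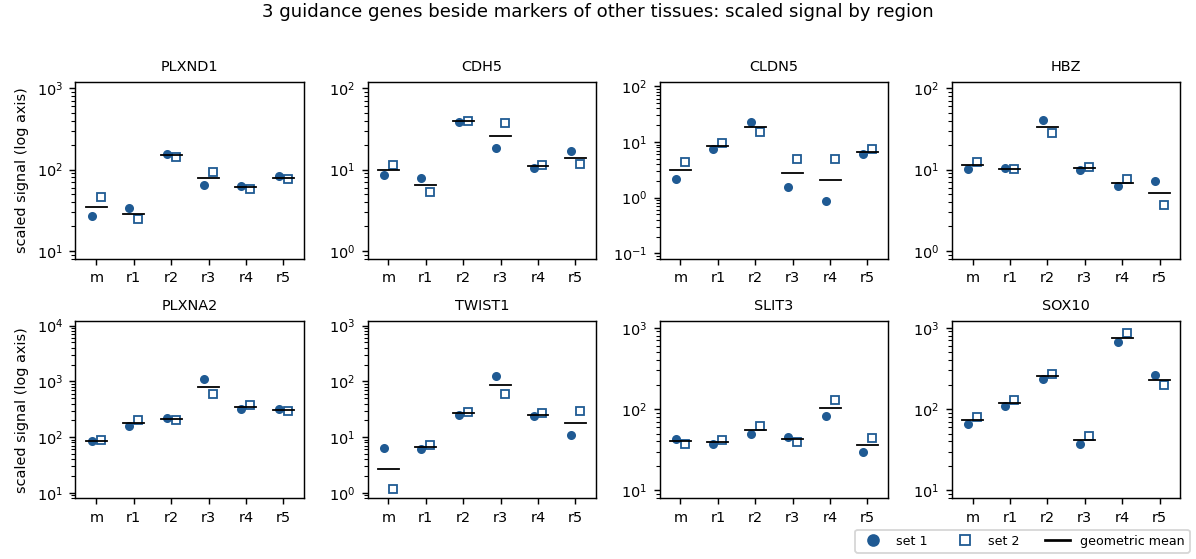
Scaled signal (log axis) of PLXND1, PLXNA2 and SLIT3, each beside markers of other tissues that were chosen after their values were seen, namely CDH5, CLDN5 and HBZ (endothelium and blood), TWIST1 (head mesenchyme) and SOX10 (neural crest). Filled circles are set 1, open squares set 2 and lines the geometric mean. Each marker drawn was picked as highest in the region of its guidance gene, so that match is not a result. In their lists 4 of 8 blood and endothelium markers are highest in r2, 4 of 7 head mesoderm and somite markers in r3 and 7 of 8 crest markers in r4. Markers that are highest elsewhere are not drawn.

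Several probe sets were on the array for 28 of the 42 genes. Of the 73 probe sets not used, 33 were tested and 12 passed the F test. Among the 16 genes called, 12 had another probe set that was tested, and in 5 of these (NRP1, PLXNA2, PLXNC1, SEMA5B and SEMA6D) at least 1 other passed too. Of the 29 calls of single regions, 22 could be set against a second probe set, and 4 held with it. The probe set used is by rule the one with the highest mean, so the others are lower in mean, though not in every region. PLXNB3, PLXND1, SEMA3A and SEMA3F had no second probe set that was tested.

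Other genes of axon guidance, taken from a list of 59 adhesion molecules, further ligands and cytoplasmic effectors, are given for comparison. Of these 54 are named on the array, 44 were tested and 24 passed the F test, 54.5% against 41.4% of all genes. In m and r1 11 were higher (25% against 21.6%) and 6 lower (13.6% against 7.71%), and 18 were lower in r3 (40.9% against 45.3%). DRAXIN, a secreted inhibitor of axon growth first described in the chick, had the smallest adjusted p, with signals of 57.0 and 55.4 in m, 90.5 and 101 in r1, 430.3 and 432 in r2, 485 and 465 in r3, 724 and 772 in r4 and 431 and 378 in r5 (F adjusted p = 9.53e-07). Both m arrays lay below all others. NFASC, a cell adhesion molecule of axons, had 261 and 292 in m, 363 and 437 in r1, 337 and 442 in r2, 544 and 571 in r3, 804 and 754 in r4 and 1353 and 877 in r5 (adjusted p = 4.08e-04), also with m lowest. DPYSL2, which carries semaphorin signals to microtubules, had 482 and 421 in m, 429 and 324 in r1, 373 and 305 in r2, 60.3 and 28.2 in r3, 97.4 and 213 in r4 and 179 and 284 in r5 (adjusted p = 4.57e-04), and DPYSL4 of the same family 149 and 125 in m, 118 and 95.8 in r1, 82.3 and 79.7 in r2, 24.9 and 22.5 in r3, 49.4 and 95.1 in r4 and 71.1 and 66.9 in r5 (adjusted p = 8.43e-04), both lowest in r3.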

How the data were processed

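The authors hybridised RNA from pools of dissected tissue to 12 Affymetrix Chicken GeneChips and deposited linear MAS5 signal intensity values per probe set, made on each array alone in the GCOS software with no common scale. A genome build is not given in the sources used here. Replicate arrays carry separate pools, so p-values measure the spread between pools.

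The 96 control probe sets were left out, and 38439 remained, of which 27168 have 1 gene symbol in the platform annotation, 177 several and 11094 none. Only those with 1 symbol were named. Of the 42 genes, 41 matched RefSeq by Entrez ID. Each array was divided by its median and multiplied by 5.90, values were raised to the pooled 20th percentile and log2 was taken. The 21731 probe sets that exceeded the median of the array on both arrays of some region were fitted with limma 3.58.1 in R 4.3.3 (region means, moderated with an intensity trend, 6 residual and 6.00 prior degrees of freedom), and p-values were Benjamini-Hochberg adjusted over all of them at a threshold of 0.05. Log2 fold changes are m and r1 over r2 to r5, or 1 region over the mean of the other 5. The fit was tested on simulated data. The alternatives were other scalings, floors, filters, weights and tests, the set number as a block, a second probe set per gene, and leaving out arrays.

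Genes past the F test are described one by one, all genes past a contrast are named, and up to 4 genes of the comparison list are named. The genes, the comparison list and the marker lists were chosen with earlier results of these data known. The plots were drawn with matplotlib 3.10.9.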

Additional observations from a re-analysis of the deposited data

How the results depend on the processing

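The counts of guidance genes called are small, and most of those for single regions moved with the processing, for which the cause was not tested. Shares over all genes were taken without both r3 arrays and, for the F test alone, with the other filters. The remaining counts below have no such share beside them and are not read as a trait of the guidance genes. The counts that moved by over 1.5 times are these. In the unmoderated analysis of variance, with the adjustment of p used here, 10 genes passed the F test. Its calls were 1 higher and 1 lower in m, 0 lower in r1 and 0 higher and 0 lower in r2. There were 0 lower in r4 and 0 higher and 1 lower in r5. In the comparison list 12 passed its F test. With the second probe set of each gene 8 genes passed the F test and the calls were 2 higher and 1 lower in m and r1, 1 higher and 1 lower in m, 0 higher and 0 lower in r1, 0 higher and 0 lower in r2 and 0 higher and 0 lower in r5, and 13 of the comparison list passed the F test. Without scaling the calls were 11 higher and 1 lower in m and r1, 1 lower in m, 1 higher and 0 lower in r1, 4 higher and 0 lower in r2, 19 lower in r3, 0 higher and 0 lower in r4 and 0 higher and 1 lower in r5. After quantile normalisation the calls were 9 lower in m and r1, 4 lower in r1, 2 higher and 2 lower in r2, 7 higher and 4 lower in r3 and 2 higher and 2 lower in r4. Without both r3 arrays the calls were 8 lower in m and r1, 5 higher and 2 lower in r1, 2 higher in r2, 5 higher and 8 lower in r4 and 4 lower in r5. With no filter the calls were 1 higher in m, 0 higher and 0 lower in r2 and 0 lower in r4. Without the intensity trend the calls were 1 higher and 1 lower in m, 1 higher and 0 lower in r1, 0 higher and 0 lower in r2, 0 lower in r4 and 1 higher in r5, and 12 of the comparison list passed the F test. With array weights the calls were 7 higher and 9 lower in m, 9 higher and 6 lower in r1, 6 higher and 2 lower in r2, 4 lower in r3 and 2 lower in r4. With no raised floor the calls were 0 lower in r2. With the floor at the 40th percentile the calls were 2 higher in r4. The F test of the guidance genes gave 16 calls with all arrays and stayed within 1.5 times of that under the other alternatives. Leaving out single arrays gave 12 to 20 calls in the F test and 15 to 33 in the comparison list. It gave higher calls of 5 to 10 in m and r1, 0 to 6 in m, 0 to 8 in r1, 0 to 7 in r2, 1 to 2 in r3, 0 to 5 in r4, 0 to 4 in r5, and lower calls of 5 to 8 in m and r1, 1 to 9 in m, 0 to 6 in r1, 0 to 3 in r2, 8 to 11 in r3, 0 to 3 in r4, 1 to 4 in r5. No strong common effect of the set number was seen over all probe sets tested, since 0 of 15 pairs of regions had deviations correlated over 0.1 (−0.042 to 0.071). By the paper, the 2 replicate pools of a region came from different collections by the same person. The check does not show whether the arrays of a set share embryos or a collection. With the set number as a replicate block 16 genes passed the F test, 0 were lower in r2 (SEMA5B, adjusted p = 0.0705), and PLXNA1 missed the threshold in m and r1 (adjusted p = 0.0517). A pair of values turned round in r3, namely NEO1 after quantile normalisation (log2 fold change 0.23, against −0.69) and NRP2 with its second probe set (0.18, against −1.46). By the choice of probe set the others had lower mean signals than those used, and the part of this in the calls lost with a second probe set was not tested.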

Other observations

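Some of these genes lie next to each other in the RefSeq annotation of the chicken genome (GRCg7b). SEMA3D and SEMA3A have 0 protein-coding genes between them, and SEMA3A and SEMA3E also 0. SEMA3D had its highest mean in r2 and SEMA3A in r1, and SEMA3E, which did not pass the filter, in r2. ROBO1 and ROBO2 have 1 protein-coding gene between them, and both had their lowest mean in m, where ROBO2 was called lower and ROBO1 was not called. No difference between neighbours was tested.

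Guidance genes with no call in the F test were 17 of the 33 tested, with adjusted p from 0.0739 to 0.933, and 5 of them had an unadjusted p under 0.05. The 9 below the filter (NTN1, NTN4, NTN4L, ROBO4, SEMA3B, SEMA3C, SEMA3E, SEMA4G and SEMA6B) had scaled signals of 0.172 to 10.1 over the 12 arrays.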
